A study of Mus musculus with 12 samples.

Results

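The 26S proteasome is the protease that degrades ubiquitin-tagged proteins, and 45 of the 15366 genes listed in these data encode its constitutive subunits and the proteins that assemble, activate or inhibit it. They were taken by symbol: every gene named Psma, Psmb, Psmc, Psmd, Psme, Psmf or Psmg plus a number, leaving out Psmb8, Psmb9 and Psmb10, which encode the catalytic subunits of the immunoproteasome. By role they comprise 7 alpha and 7 beta subunits of the 20S core, 9 subunits of the base and 8 of the lid of the 19S regulatory particle, and 14 accessory genes. The accessory genes are 2 tissue-restricted core variants, 3 chaperones of the base, 4 activators, 1 inhibitor or regulator and 4 chaperones of the core. All 45 passed the filter on low values (CPM above 1 in at least 3 libraries), Psmb11 only just.

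RNA was measured by RNA-seq in bone marrow LSK cells (lineage-negative, Sca-1-positive, Kit-positive), the sorted fraction that holds blood stem cells and early multipotent progenitors. The 12 libraries came from untreated C57BL/6 mice in 4 genotype groups of 3. The controls carry Vav Cre, a recombinase under blood-cell Vav sequences. A second group, here KDM6B OE, is labelled Vav human KDM6B, a transgene for a histone H3 lysine 27 demethylase, and its label names no Cre. The third, here Tet2 KO, is labelled Vav Cre/ Tet2 flox/flox so that Cre can delete Tet2, an oxidase of methylated cytosine. The fourth, here the double lesion, carries the Vav human KDM6B transgene together with Vav Cre and Tet2 flox/flox. Vav sequences act across the blood lineage and not only in LSK cells. Whether the 3 libraries of a group are 3 mice is not stated, so p-values measure only how far these libraries spread, part of which may be technical.

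In the core particle, outer rings of alpha subunits gate a chamber formed by inner rings of beta subunits, of which Psmb5, Psmb6 and Psmb7 carry the active sites. The 19S particle caps the core: its base holds the ATPases Psmc1 to Psmc6, which unfold the substrate, and its lid holds Psmd14, which removes the ubiquitin chain. Subunits are needed in fixed proportions, and their genes are known to be transcribed together, in part through Nfe2l1, a factor that binds antioxidant response elements when proteasome activity is short. Blood stem cells are known to keep protein synthesis low and to depend on protein quality control.

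The promoters of 5 members are shown because these genes span the range of response described below: Psmb5, Psmb6 and Psmd4 were lower in the double lesion, and Psmd2 and Psme3 did not pass the test. Each line gives the 100 bases before the RefSeq start site, read 5′ to 3′ on the strand of the gene, in build GRCm38.p6. Capitals mark the antioxidant response element core TGACNNNGC or the NF-Y motif CCAAT, on either strand.
Psmb5 (chr14:54617996-54618095, minus strand): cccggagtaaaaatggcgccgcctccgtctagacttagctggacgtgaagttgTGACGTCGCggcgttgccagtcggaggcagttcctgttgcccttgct
Psmb6 (chr11:70525257-70525356, plus strand): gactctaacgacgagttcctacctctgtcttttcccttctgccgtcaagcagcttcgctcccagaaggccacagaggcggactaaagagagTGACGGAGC
Psmd4 (chr3:95042615-95042714, minus strand): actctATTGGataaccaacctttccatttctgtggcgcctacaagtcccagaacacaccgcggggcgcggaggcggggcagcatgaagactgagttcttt
Psmd2 (chr16:20651552-20651651, plus strand): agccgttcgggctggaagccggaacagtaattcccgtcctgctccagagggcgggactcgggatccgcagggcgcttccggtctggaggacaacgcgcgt
Psme3 (chr11:101316113-101316212, plus strand): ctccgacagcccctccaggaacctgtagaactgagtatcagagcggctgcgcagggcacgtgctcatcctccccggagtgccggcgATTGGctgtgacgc
The Psmb5 match, TGACGTCGC, begins 47 bases before the start site, and the Psmb6 match, TGACGGAGC, ends at the base before it. In the Psmb5 line the last 27 bases lie in an exon of the GENCODE annotation. The Psmd2 window holds neither motif and has a GC box, GGGCGG, from base -52.

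A promoter of 300 bases (250 before the start site, 50 after) was matched by symbol for 37 of the 45 members. TGACNNNGC was found in 6 of the 37 (16.2%) and in 17.3% of the 9906 tested genes with a promoter. It was in 14% of all 27025 gene symbols with a promoter, where a match in any promoter of a symbol counts. CCAAT was in 13 of 37 (35.1%, against 42.7% and 41.1%), and GGGCGG in 22 of 37 (59.5%, against 67.7% and 38.2%). The ETS motif CCGGAAGT was in 9 of 37 (24.3%, against 9.02% and 4.31%): Psma6, Psmc1, Psmc2, Psmd6, Psmd12, Psmd13, Psme3, Psme4 and Psmg3. All motifs were searched on both strands. TGACNNNGC was in 2 of 19 matched members called lower in the double lesion and in 4 of 18 of the others, and CCGGAAGT in 4 of 19 and 5 of 18. These are matches of letters and no measure of binding.

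The libraries held 21935022 to 26263370 reads on listed genes, and 1 read was worth 0.0373 to 0.0463 CPM (counts per 1e+06 reads of a scaled library total). Tet2 averaged 29.9 CPM in the 6 libraries with floxed Tet2 and 80.5 CPM in the other 6 (exact two-sided permutation p = 0.00216), and mouse Kdm6b 10.4 CPM with the transgene and 6.49 CPM without it (p = 0.00433). Reads of the human KDM6B transgene that may align to mouse Kdm6b were not told apart. The 9 LSK markers, Kit and Ly6a (Sca-1) among them, summed to 2364 to 3926 CPM. Marker lists of other cells summed, over the 12 libraries, to 64.0 to 182 CPM for B cells (6 genes, Pax5 and Ebf1 at 0 in at least 1 library), 214 to 353 CPM for T and NK cells (5 genes, Cd3e, Cd3d and Cd3g at 0 in at least 1) and 1.19 to 43.1 CPM for neutrophils (5 genes, S100a9, Ltf and Camp at 0 in at least 1). The sums were 438 to 639 CPM for monocytes and macrophages (6 genes), 100.03 to 546 CPM for mast cells and basophils (4 genes) and 110 to 205 CPM for megakaryocytes (4 genes), with none of these genes at 0. Y-linked transcripts (mean of 4 genes) stood at 58.2 to 67.5 CPM in double lesion 1 and 3, Tet2 KO 1 and Vav Cre 1, and at most 0.355 CPM in the other 8 libraries, so sex, which the labels do not give, differs within 3 of the 4 groups. The kits used do not mark strand, and exons of 11 members overlap another annotated gene, by 10% or more of their exon bases in Psmb5, Psmb7, Psmd9 and Psmd13. Processed pseudogenes of proteasome genes are known, and reads they may share were not told apart.

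A pair of libraries stood at the ends of the range. Vav Cre 2 was the highest of all 12 libraries for 36 of the 45 members, and double lesion 1 the lowest for 30. Together the 45 genes summed to 10465, 13492 and 10306 CPM in Vav Cre 1, 2 and 3, to 8744, 9824 and 10161 CPM in KDM6B OE, to 9281, 11038 and 10041 CPM in Tet2 KO and to 7989, 8841 and 8969 CPM in the double lesion. As a share of reads, this was 0.843% to 1.25%. The 3 double lesion libraries therefore lay below each Vav Cre library, while Tet2 KO 2 lay above Vav Cre 1 and 3. The median SD of a member on the log2(CPM + 1) scale was 0.27 in Vav Cre and 0.14, 0.15 and 0.12 in KDM6B OE, Tet2 KO and the double lesion. Over all genes the median SD was 0.28 in Vav Cre and 0.15, 0.21 and 0.15 in the same order, so the wider Vav Cre spread is not particular to the members.

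**Figure D1:**
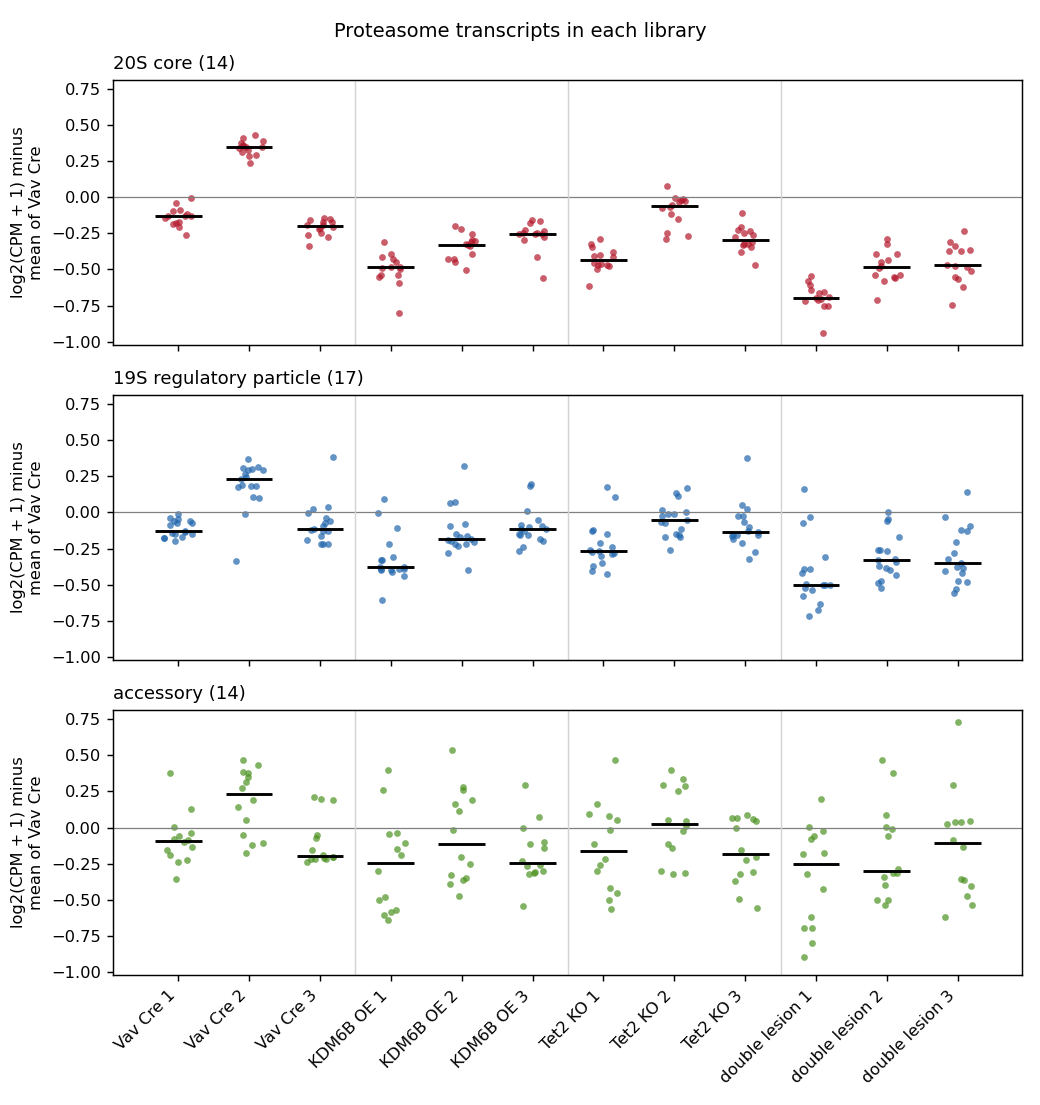
Each point is 1 gene in 1 of the 12 libraries, as log2(CPM + 1) minus its mean over the 3 Vav Cre libraries. Panels show the 14 core genes, the 17 genes of the 19S particle and the 14 accessory genes. Black bars mark the median gene of each library. Vav Cre 2 is the highest point for most genes and double lesion 1 the lowest, and accessory genes spread more than core genes.

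In control LSK cells core and 19S genes summed to similar levels (4720 ± 998 and 4695 ± 549 CPM, SD, n = 3), and the core median was higher once values were divided by transcript length. Per kilobase of transcript the core median was 242 CPM in Vav Cre (108 to 594 over 14 genes) and the 19S median 148 CPM (65.3 to 231 over 17 genes). The highest level was that of Psma7, an alpha subunit (chromosome 2, 180036374 to 180042433), at 594 ± 109 CPM per kilobase (SD, n = 3). Psmb6, the caspase-like active subunit, was at 511 CPM per kilobase, and Psme1, a subunit of the PA28 activator, at 482. At the other end, Psme4, which encodes the activator PA200, was at 7.64 CPM per kilobase. The variant of the core found in the thymus, Psmb11, was at 0.162 CPM per kilobase, and its 12 values ran from 0.429 to 1.79 CPM.

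Double lesion against Vav Cre asks what goes with both lesions together. Proteasome genes were lower: 23 of the 45 fell and none rose (limma, adjusted p under 0.05), where 7.58% of the 13046 genes tested fell, 7.34% rose and 14.9% changed in either direction. The log2 difference was negative for 41 of 45, with a median of -0.44 against 0.049 over all genes tested. Of the 14 core genes 10 fell (median -0.56), of the 17 genes of the 19S particle 8 fell (median -0.38) and of the 14 accessory genes 5 fell (median -0.18). The mean of a core gene in the double lesion was 58.1% to 76.8% of that in Vav Cre (median 67.4%), and that of a 19S gene 65.8% to 107% (median 76.0%). Without regard to the model, 31 of the 45 members had all 3 double lesion libraries below all 3 Vav Cre libraries, against 16.4% of all genes tested; all 23 members called are among these 31.

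Most calls in this comparison were lost in at least 1 of the 12 fits that left out a library, while Psmd13 was kept in all 12. Without Vav Cre 2, 6 members were called lower (Psmb3, Psmb4, Psmb5, Psmc4, Psmd8 and Psmd13; background 2.34%, the share of all genes tested that were lower in that fit), the core median was -0.39 and the 19S median -0.27. The other 17 of the 23 had values of -0.46 to -0.27 in that fit, with adjusted p from 0.0584 to 0.182. Without double lesion 1, Psmd13 alone was called (background 1.1%), and the core median was -0.48. The other 22 then had values of -0.67 to -0.32 and adjusted p from 0.0706 to 0.201. Without double lesion 2, double lesion 3 or KDM6B OE 2 the count was 7, 9 and 14 (background 3.43%, 3.67% and 5.42%), and in the other 7 such fits it was 18 to 31. With only the 6 libraries of the 2 groups in the fit, no member was called at an adjusted p under 0.05 (background 1.06%), while 30 had an unadjusted p under 0.05, as did 26.6% of all genes; edgeR and DESeq2 on all 12 libraries called 21 and 30 (background 7.14% and 11.3%). With column totals made equal, 20 members fell and none rose (background 5.85%), and the calls over all genes were 1285 higher and 763 lower in place of 958 and 989. A term for sex, read from the Y-linked transcripts and added after the data were seen, left 13 calls (background 5.3%). The main fit shares its estimate of spread over all groups, although members spread more in Vav Cre than in the double lesion (median SD 0.27 and 0.12). Its p-values for Vav Cre comparisons therefore rest on a spread smaller than that of the Vav Cre libraries. Fewer cells of a type and less RNA per cell cannot be told apart in these bulk samples.

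**Figure D2:**
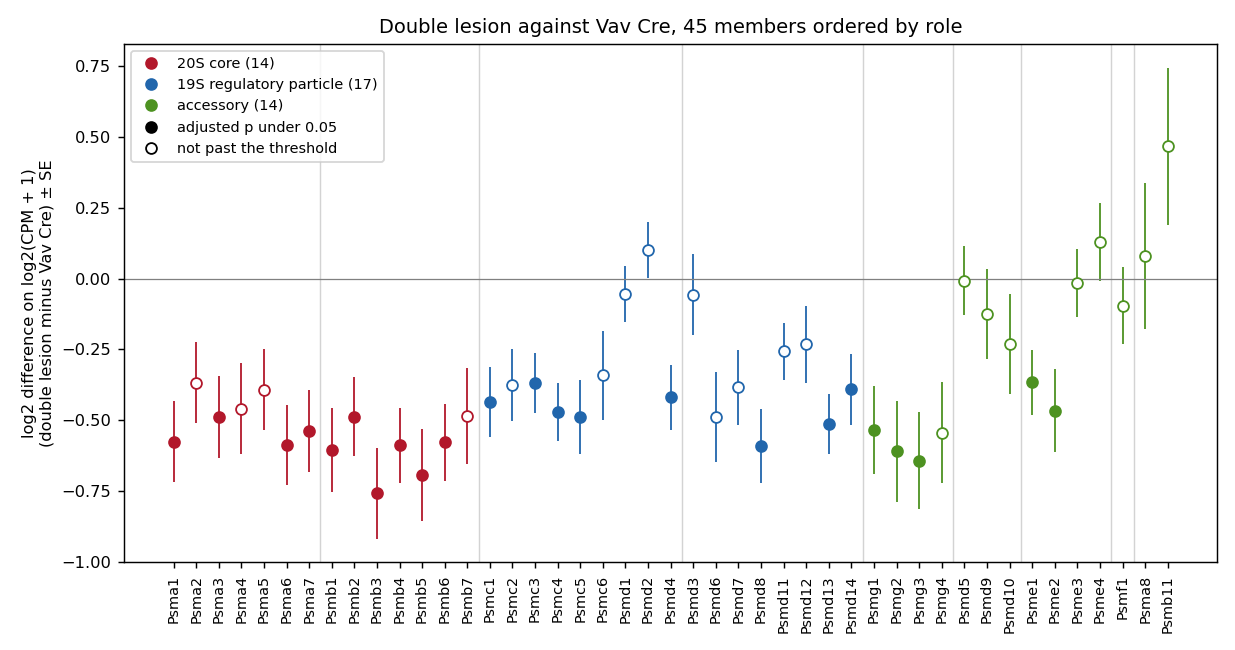
Each point is the log2 difference of 1 gene between the double lesion and Vav Cre, with its standard error, ordered within the core, 19S and accessory groups; filled points passed the test. All 14 core genes lie below 0, and filled points are 10 core, 8 of the 19S particle and 5 accessory genes.

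Among the alpha subunits, which form the outer rings and their gate, Psma1, Psma3, Psma6 and Psma7 fell, and all 7 were negative (median -0.49). Psma6 (chromosome 12, 55384222 to 55418454) was at 391, 498 and 332 CPM in Vav Cre, 276, 298 and 336 in KDM6B OE, 290.2, 362 and 319 in Tet2 KO and 244, 272 and 287 in the double lesion. The 3 double lesion values lay below all 3 Vav Cre values, and the gene fell by 0.59 ± 0.14 (adjusted p = 0.0195). Psma1 (chromosome 7, 114264606 to 114276118) was at 403, 599 and 418 CPM in Vav Cre, 346, 354 and 392 in KDM6B OE, 349.9, 429 and 398 in Tet2 KO and 283, 319.9 and 337 in the double lesion, a fall of 0.58 ± 0.14 (adjusted p = 0.0209), and its groups did not overlap either. Psma7 was at 495, 658 and 476 CPM in Vav Cre, 370.0, 428 and 451 in KDM6B OE, 386, 534 and 457 in Tet2 KO and 332, 393 and 386 in the double lesion. It fell by 0.54 ± 0.15 (adjusted p = 0.0284), and one Tet2 KO library, at 534 CPM, lay above Vav Cre 1 and 3. Psma3 fell by 0.49 ± 0.14 (adjusted p = 0.0381). Psma2, Psma4 and Psma5 did not pass, at -0.37, -0.46 and -0.39 (adjusted p = 0.0959, 0.067 and 0.0777). None of the 4 calls was kept without Vav Cre 2, where the values were -0.39, -0.32, -0.43 and -0.39 in the order Psma1, Psma3, Psma6 and Psma7.

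Of the 7 beta subunits 6 fell, and the median was -0.59. Psmb3 (chromosome 11, 97703399 to 97713500), a structural beta subunit without an active site, had the largest decrease of the 45 genes. It was at 283, 412 and 264 CPM in Vav Cre, 179.7, 229 and 212 in KDM6B OE, 204, 257 and 227 in Tet2 KO and 163, 191 and 203 in the double lesion. The double lesion mean was 58.1% of the Vav Cre mean (67.9% of Vav Cre 1 and 3), a fall of 0.76 ± 0.16 (adjusted p = 0.013). The call held without Vav Cre 2 (-0.56, adjusted p = 0.0328) and was lost without double lesion 1 (-0.67, adjusted p = 0.0717). Psmb4 (chromosome 3, 94884093 to 94886961), also without an active site, was at 188, 262 and 176 CPM in Vav Cre, 154, 153 and 154 in KDM6B OE, 145, 170.4 and 165 in Tet2 KO and 129.6, 141 and 139 in the double lesion. Its KDM6B OE libraries were almost equal, and it fell by 0.59 ± 0.13 in the double lesion (adjusted p = 0.015). Psmb1 (chromosome 17, 15475021 to 15499751) was at 302, 438 and 304 CPM in Vav Cre and 203, 234 and 241 CPM in the double lesion, with 243 to 291 CPM in KDM6B OE and 249.9 to 327 CPM in Tet2 KO, and fell by 0.60 ± 0.15 (adjusted p = 0.0207). Psmb2 fell by 0.49 ± 0.14 (adjusted p = 0.0347). Without Vav Cre 2, Psmb1 and Psmb2 were no longer called (adjusted p = 0.065 and 0.125), and without double lesion 1 Psmb4 was not (adjusted p = 0.0759).

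Of the 3 catalytic subunits Psmb5 and Psmb6 fell and Psmb7 did not pass. Psmb5 (chromosome 14, 54614119 to 54618022), the chymotrypsin-like site and main target of proteasome inhibitor drugs, was at 135, 206 and 127 CPM in Vav Cre, 100.2, 107 and 129.8 in KDM6B OE, 109.9, 128 and 116 in Tet2 KO and 89.6, 101 and 90.3 in the double lesion. It fell by 0.69 ± 0.16 (adjusted p = 0.0181), and by 0.48 without Vav Cre 2 (adjusted p = 0.047). The call was lost without double lesion 1 (-0.66, adjusted p = 0.081). Psmb6 (chromosome 11, 70525367 to 70527858), the caspase-like site, was at 379, 478 and 367 CPM in Vav Cre, 288, 319.9 and 362 in KDM6B OE, 319, 427 and 341 in Tet2 KO and 248, 291 and 276 in the double lesion. It fell by 0.58 ± 0.14 (adjusted p = 0.0183), and Tet2 KO 2, at 427 CPM, was above 2 of the 3 Vav Cre libraries. Its call was lost without Vav Cre 2 (-0.46, adjusted p = 0.0621). Psmb7 (chromosome 2, 38588036 to 38644087), the trypsin-like site, whose exons overlap Nek6 on the opposite strand, was at 129, 207 and 139 CPM in Vav Cre and 95.1, 118 and 120.4 CPM in the double lesion, with 105 to 126 CPM in KDM6B OE and 112 to 148 CPM in Tet2 KO. Its value of -0.49 ± 0.17 did not pass (adjusted p = 0.0675), although its groups did not overlap.

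The immunoproteasome subunits that replace these 3 are listed for contrast. Psmb8 (chromosome 17, 34197721 to 34201454), which takes the place of Psmb5, was at 591, 687 and 764 CPM in Vav Cre, 534, 648 and 547 in KDM6B OE, 534, 715 and 632 in Tet2 KO and 454, 569.8 and 486 in the double lesion, and fell by 0.43 ± 0.14 in the double lesion (adjusted p = 0.0466). Psmb10 (chromosome 8, 105935735 to 105938444), in place of Psmb7, was at 256, 296 and 248 CPM in Vav Cre and 201, 218 and 185 CPM in the double lesion, with 212 to 228 CPM in KDM6B OE and 225 to 256 CPM in Tet2 KO, and fell by 0.40 ± 0.10 (adjusted p = 0.0223). Psmb9 (chromosome 17, 34181987 to 34187764), in place of Psmb6, was at 248, 289.7 and 266 CPM in Vav Cre and 188, 257 and 211 CPM in the double lesion, with 211 to 237 CPM in KDM6B OE and 226 to 277 CPM in Tet2 KO; its value of -0.30 ± 0.12 did not pass (adjusted p = 0.112). Neither call was kept without Vav Cre 2 (adjusted p = 0.113 for Psmb8 and 0.0766 for Psmb10). The summed level per kilobase of these 3 genes was 1.72 ± 0.296 times that of Psmb5, Psmb6 and Psmb7 in Vav Cre and 1.94 ± 0.121 times in the double lesion (SD, n = 3), which overlap (1.43 to 2.02 and 1.81 to 2.05).

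In the base of the 19S particle 5 of 9 genes fell: the ATPases Psmc1, Psmc3, Psmc4 and Psmc5, and the ubiquitin receptor Psmd4. The 6 ATPases were all negative (median -0.41). Psmc4 (chromosome 7, 28041707 to 28050101) was at 275, 308 and 279.9 CPM in Vav Cre, 217, 251 and 258 in KDM6B OE, 236, 273 and 274 in Tet2 KO and 197, 218 and 206 in the double lesion. Its Vav Cre values lay close together, and it fell by 0.47 ± 0.10 (adjusted p = 0.0135), also without Vav Cre 2 (-0.42, adjusted p = 0.0413). Psmc5 (chromosome 11, 106256154 to 106263120) was at 227, 314 and 233 CPM in Vav Cre, 193, 222 and 239 in KDM6B OE, 206, 243 and 211 in Tet2 KO and 170.5, 182 and 192 in the double lesion, and fell by 0.49 ± 0.13 (adjusted p = 0.0277). Psmc1 (chromosome 12, 100110154 to 100123405) was at 337, 443 and 307 CPM in Vav Cre and 253, 265 and 275 CPM in the double lesion, with 289 to 346 CPM in KDM6B OE and 329 to 359 CPM in Tet2 KO, and fell by 0.44 ± 0.12 (adjusted p = 0.0348). Psmc2 (chromosome 5, 21785283 to 21803787) was at 239, 308 and 216 CPM in Vav Cre and 177, 198 and 207 CPM in the double lesion, with 199.8 to 221 CPM in KDM6B OE and 217 to 256 CPM in Tet2 KO; its value of -0.38 ± 0.13 did not pass (adjusted p = 0.0597). Psmd4 (chromosome 3, 95032694 to 95042614), which binds ubiquitin chains, was at 209, 268 and 235 CPM in Vav Cre and 179, 181 and 169 CPM in the double lesion, with 182 to 206 CPM in KDM6B OE and 183 to 227 CPM in Tet2 KO, and fell by 0.42 ± 0.11 (adjusted p = 0.0299). Without Vav Cre 2 the calls of Psmc1, Psmc3, Psmc5 and Psmd4 were lost (adjusted p = 0.114, 0.124, 0.0948 and 0.106), and without double lesion 1 that of Psmc4 (adjusted p = 0.0706).

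The 2 large scaffold subunits of the base were not among the genes that fell. Psmd2 (chromosome 16, 20651652 to 20663414), which docks ubiquitin receptors and shuttle factors, was at 365, 364 and 373 CPM in Vav Cre, 391, 459 and 422 in KDM6B OE, 415, 398 and 478 in Tet2 KO and 410.4, 367 and 406 in the double lesion. Vav Cre was the lowest group, and double lesion 2, at 367 CPM, was within its range while the other double lesion libraries lay above it. Its value was 0.10 ± 0.098 (adjusted p = 0.506). Psmd1 was at 263, 315 and 300.1 CPM in Vav Cre and 277, 280.3 and 285 CPM in the double lesion, with a value of -0.054 ± 0.10 (adjusted p = 0.745). A p that misses the threshold does not show that these genes stayed level.

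In the lid 3 of 8 genes fell: Psmd8, Psmd13 and Psmd14. Psmd8 (chromosome 7, 29174188 to 29180701), a structural lid subunit, was at 311, 419 and 305 CPM in Vav Cre, 256, 258 and 306 in KDM6B OE, 254, 303 and 272 in Tet2 KO and 207, 238 and 236 in the double lesion. It fell by 0.59 ± 0.13 (adjusted p = 0.0148), with no overlap between the groups. Psmd13 (chromosome 7, 140881968 to 140898643), a structural lid subunit whose exons overlap Sirt3 on the opposite strand, was at 178, 211 and 171 CPM in Vav Cre, 137, 153 and 164 in KDM6B OE, 152, 168 and 166 in Tet2 KO and 131, 133 and 126 in the double lesion. It fell by 0.51 ± 0.11 (adjusted p = 0.0114), the lowest adjusted p of the 45, and the call held in each of the 12 fits that left out 1 library. Psmd14 (chromosome 2, 61711694 to 61800376), the deubiquitinase, was at 199.9, 268 and 215 CPM in Vav Cre and 156, 188 and 173 CPM in the double lesion, with 172 to 202 CPM in KDM6B OE and 191 to 224 CPM in Tet2 KO, and fell by 0.39 ± 0.12 (adjusted p = 0.0495). Psmd14 was not called without Vav Cre 2 (-0.27, adjusted p = 0.182), nor Psmd8 without double lesion 1 (-0.53, adjusted p = 0.0778). Psmd3, a lid scaffold subunit, was at 239, 195 and 322 CPM in Vav Cre and 241, 239 and 231 CPM in the double lesion. There Vav Cre 2 was the lowest of the 12 libraries and Vav Cre 3 the highest, and the value was -0.057 ± 0.14 (adjusted p = 0.815). Psmd6, Psmd7, Psmd11 and Psmd12 were at -0.49, -0.38, -0.26 and -0.23 and did not pass.

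Among the accessory genes 5 fell, in 2 roles. Of the 4 chaperones that assemble the alpha ring, Psmg1, Psmg2 and Psmg3 fell, and all 4 were negative (median -0.58). Psmg3 (chromosome 5, 139823592 to 139826885) was at 66.6, 99.5 and 66.5 CPM in Vav Cre, 49.8, 60.4 and 63.0 in KDM6B OE, 53.4, 70.4 and 65.8 in Tet2 KO and 43.3, 53.4 and 49.1 in the double lesion. It fell by 0.64 ± 0.17 (adjusted p = 0.0271). Psmg2 (chromosome 18, 67641599 to 67654162) was at 107, 149.7 and 101 CPM in Vav Cre and 62.6, 88.5 and 80.6 CPM in the double lesion, with 77.7 to 97.9 CPM in KDM6B OE and 78.9 to 106 CPM in Tet2 KO, and fell by 0.61 ± 0.18 (adjusted p = 0.0371). Psmg1 (chromosome 16, 95979933 to 95990960) was at 96.7, 154 and 98.2 CPM in Vav Cre and 69.8, 79.7 and 85.4 CPM in the double lesion, with 77.7 to 86.3 CPM in KDM6B OE and 82.6 to 91.3 CPM in Tet2 KO, and fell by 0.53 ± 0.16 (adjusted p = 0.0383). None of these 3 calls was kept without Vav Cre 2. The 3 chaperones of the 19S base, Psmd5, Psmd9 and Psmd10, were at -0.0075, -0.13 and -0.23, and none passed (adjusted p from 0.387 to 0.975).

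Of the activators, which open the core without ATP, the interferon-inducible pair Psme1 and Psme2 fell. Psme1 (chromosome 14, 55578123 to 55581529) was at 519, 610.0 and 478 CPM in Vav Cre, 431, 448 and 498 in KDM6B OE, 445, 550.3 and 455 in Tet2 KO and 397, 429 and 415 in the double lesion, a fall of 0.37 ± 0.11 (adjusted p = 0.0457). Psme2 (chromosome 14, 55587441 to 55591113) was at 275, 366 and 253 CPM in Vav Cre and 181, 232 and 228 CPM in the double lesion, with 198 to 239 CPM in KDM6B OE and 238 to 296 CPM in Tet2 KO, a fall of 0.47 ± 0.15 (adjusted p = 0.0476). Both calls were lost without Vav Cre 2, at -0.27 and -0.31. Psme3 (chromosome 11, 101316213 to 101323537), the nuclear activator, was at 273, 269 and 332 CPM in Vav Cre, 281, 352 and 356 in KDM6B OE, 301, 356 and 299 in Tet2 KO and 275, 290.3 and 295 in the double lesion. Its value of -0.017 ± 0.12 did not pass (adjusted p = 0.939), and its sign turned with equal column totals (0.067). Psme4 (chromosome 11, 30771726 to 30880361) was at 49.6, 51.5 and 47.7 CPM in Vav Cre, 65.7, 56.7 and 49.4 in KDM6B OE, 55.7, 65.7 and 52.0 in Tet2 KO and 49.6, 52.7 and 61.2 in the double lesion, with a value of 0.13 ± 0.14 (adjusted p = 0.549). Psmf1 (chromosome 2, 151715812 to 151744186), known as an inhibitor of the core in the test tube, was at 90.5, 79.6 and 78.4 CPM in Vav Cre and 81.3, 66.3 and 85.6 CPM in the double lesion, with 74.8 to 81.5 CPM in KDM6B OE and 66.0 to 87.9 CPM in Tet2 KO, and a value of -0.096 ± 0.14 (adjusted p = 0.662). The testis variant Psma8 was at 35.7, 24.0 and 23.5 CPM in Vav Cre and 24.0, 35.6 and 27.9 CPM in the double lesion (0.079 ± 0.26, adjusted p = 0.863), with 18.9 to 34.7 CPM in the single lesions, and Psmb11 at 0.594, 0.549 and 0.923 CPM in Vav Cre and 0.933, 1.32 and 1.79 CPM in the double lesion (0.47 ± 0.28, adjusted p = 0.266).

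Core and 19S genes were then set against each other within each library, as the mean log2(CPM + 1) of the 14 core genes minus that of the 17 genes of the 19S particle. The difference was 0.21, 0.39 and 0.10 in Vav Cre, 0.053, 0.029 and 0.061 in KDM6B OE, 0.029, 0.19 and 0.041 in Tet2 KO and -0.037, 0.054 and 0.072 in the double lesion. Each double lesion and KDM6B OE library lay below each Vav Cre library, and Tet2 KO 2 lay inside the Vav Cre range. The group means were 0.23 ± 0.14, 0.048 ± 0.016, 0.087 ± 0.090 and 0.030 ± 0.058 (SD, n = 3), so that relative to Vav Cre the core moved by -0.20 against the 19S particle in the double lesion. Without Vav Cre 2 this was -0.13, and with the trend on transcript length removed -0.066. As summed levels, 19S genes stood at 1.01 ± 0.095 times the core genes in Vav Cre and 1.17 ± 0.059 times in the double lesion. Members are not replicates, so no test is given.

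KDM6B OE against Vav Cre gives the transgene without Tet2 deletion. The KDM6B OE label names no Cre, so Cre may differ along with the transgene. No member passed limma's test, where 0.598% of all genes changed and 0.0767% fell; 21 of the 45 had an unadjusted p under 0.05 (edgeR 22), as did 21.6% of all genes (edgeR 20.3%), edgeR called none and DESeq2 called 3 (background 2.84%). The value was negative for 38 of 45, with a median of -0.25 (0.043 over all genes), -0.36 in the core and -0.23 in the 19S particle. Psmb3 had the lowest value, -0.60 ± 0.16 (adjusted p = 0.0996), followed by Psmg1 at -0.47 ± 0.16 (adjusted p = 0.135). The highest were Psmd2 at 0.20 ± 0.098 and Psme4 at 0.19 ± 0.14 (adjusted p = 0.248 and 0.429). All 3 KDM6B OE libraries were below all 3 Vav Cre libraries for 19 members, where 10.9% of all genes were. Leaving out Vav Cre 3 gave 8 calls (background 4.71%); leaving out any other single library gave none.

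Tet2 KO against Vav Cre gives the deletion without the transgene. None of the 45 passed (limma; 0.0307% of all genes changed and 0.00767% fell), 8 had an unadjusted p under 0.05 (edgeR 9), or 17.8% where 13.5% of all genes did (edgeR 20% and 12.8%), and edgeR and DESeq2 called none. The value was negative for 39, with a median of -0.18 (0.028 over all genes), -0.25 in the core and -0.14 in the 19S particle. The lowest values were again at Psmb3, -0.46 ± 0.16, and at Psmg2, -0.42 ± 0.18 (adjusted p = 0.277 and 0.334). Psmd2 and Psme4 were highest at 0.22 ± 0.098 and 0.21 ± 0.14 (adjusted p = 0.349 and 0.518). The groups did not overlap downward for 8 members, where 5.7% of all genes did so. Both single lesions and the double lesion were read against the same 3 Vav Cre libraries, so their values are not independent of each other.

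**Figure D3:**
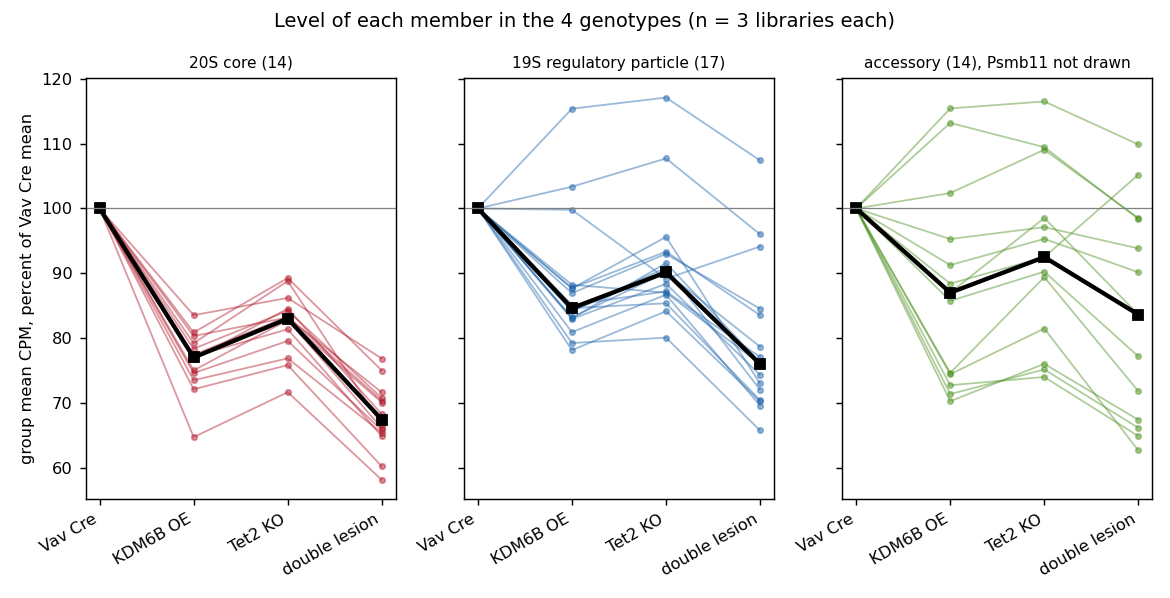
Thin lines join the mean CPM of each gene, as a percent of its mean in Vav Cre, across the 4 groups. Panels show core, 19S and accessory genes, with the median in black. Most 20S and 19S genes lie below 100% in KDM6B OE, Tet2 KO and the double lesion, and lowest in the double lesion. Psmd2 lies above 100%, and Psmb11, at under 2 CPM, is not drawn.

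The double lesion was also set against each single lesion, to see whether the second lesion added a difference. For KDM6B OE, whose label names no Cre, Cre may differ along with Tet2. Against KDM6B OE no member passed and no gene of the whole table did (0%); 1 member had an unadjusted p under 0.05 by limma and none by edgeR, where 5.91% and 5.4% of all genes did. The value was negative for 43 of 45, but small, with a median of -0.15 (-0.012 over all genes). Psmd8 and Psmc5 were lowest at -0.27 ± 0.13 and -0.26 ± 0.13 (adjusted p = 0.864 and 0.88), and Psmb11 and Psma8 highest at 0.28 ± 0.28 and 0.26 ± 0.26. Against Tet2 KO no member passed (0.215% of all genes changed, 0.023% fell), and 9 had an unadjusted p under 0.05 by limma and 6 by edgeR (20% and 13.3%, against 10.6% and 9.88% of all genes). The median was -0.23 (-0.0036 over all genes), and 26 members had all double lesion libraries below all Tet2 KO libraries, where 10.9% of all genes did. Psmb6 and Psmc1 were lowest at -0.41 ± 0.14 and -0.39 ± 0.12 (adjusted p = 0.351 and 0.317), and Psmb11 and Psma8 highest at 0.27 ± 0.28 and 0.20 ± 0.26. DESeq2 called no member in either comparison.

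The interaction is the departure of the double lesion from the sum of the single-lesion differences. It was called for no member and no gene (0%) by limma or edgeR. Cre, which the KDM6B OE label does not name, may also enter this contrast. A single member, Psmd2, had an unadjusted p under 0.05, where 4.43% of all genes did, and the median was 0.040. Psmd2 (-0.32 ± 0.14) and Psme3 (-0.33 ± 0.17) had the lowest values and Psma8 (0.39 ± 0.36) and Psmb3 (0.30 ± 0.23) the highest, each with an adjusted p of 0.999.

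With the 6 transgene libraries set against the 6 without it, 4 members fell: Psmb3 by 0.45 ± 0.11, Psmb6 by 0.37 ± 0.096, Psmc4 by 0.29 ± 0.072 and Psmd13 by 0.31 ± 0.075 (limma, adjusted p = 0.0447, 0.0482, 0.0432 and 0.0423). Over all genes 1.83% fell and 4.35% changed. The median of the 45 was -0.26, and 30 had an unadjusted p under 0.05, as did 26.9% of all genes; edgeR called 3, DESeq2 19 (background 1.46% and 7.04%). Next came Psmb5 at -0.39 ± 0.12 (adjusted p = 0.0653), while Psmb11 and Psme4 were highest at 0.23 ± 0.20 and 0.056 ± 0.097. For none of the 45 did the 6 and 6 libraries separate (0.644% of all genes did so downward); for Psmd13, KDM6B OE 3 at 164 CPM was above Tet2 KO 1 at 152 CPM. The 6 libraries with floxed Tet2 against the other 6 gave no call by limma, edgeR or DESeq2 (0.207% of all genes changed by limma, 0.0383% fell), with 14 members at an unadjusted p under 0.05 (31.1%, against 14.7% of all genes) and a median of -0.17. Psmb5 and Psmb3 were lowest there, at -0.31 ± 0.12 and -0.30 ± 0.11 (adjusted p = 0.249 and 0.249), and Psmb11 and Psme4 highest, at 0.24 ± 0.20 and 0.072 ± 0.097. KDM6B OE is the one group whose label names no Cre, so Cre is not fully separate from the transgene or from Tet2 deletion here. For the transgene comparison, no member was called in 10 of the 12 fits that left out 1 library. The other fits of that comparison, without Vav Cre 3 and without Tet2 KO 1, called 25 and 5 (background 8.62% and 1.92%). For the Tet2 deletion comparison no member was called in any of the 12 fits.

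The log2 difference of a member was related to the length of its transcript. Across the 45 genes the log2 difference between the double lesion and Vav Cre rose with log2 transcript length (Pearson r = 0.787, Spearman rho = 0.769); across 12554 tested genes with a length, r was 0.244 and rho 0.302. These genes share libraries and are not independent replicates, and lengths are those of the annotated principal transcript. Of 15 members of up to 1200 bases 12 fell, with a median of -0.54, where all genes of that length had a median of -0.33 and 25.9% fell. Above 1200 and up to 2000 bases 10 of 17 fell (median -0.42, against -0.12 and 12.3% of all genes). Above 2000 and up to 3000 bases 1 of 8 fell (median -0.19, against 0.071 and 4.93%), and above 3000 bases none of 5 (median -0.0075, against 0.16 and 3.15%). Core transcripts had a median length of 1163 bases and 19S transcripts of 1636 bases. Psmd2, Psmd1 and Psmd5, which were not called, measure 2961, 3112 and 4397 bases. Length did not sort the calls fully: Psma3, at 2846 bases, was called, and Psmg4 and Psmb7, at 555 and 1160 bases, were not.

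**Figure D4:**
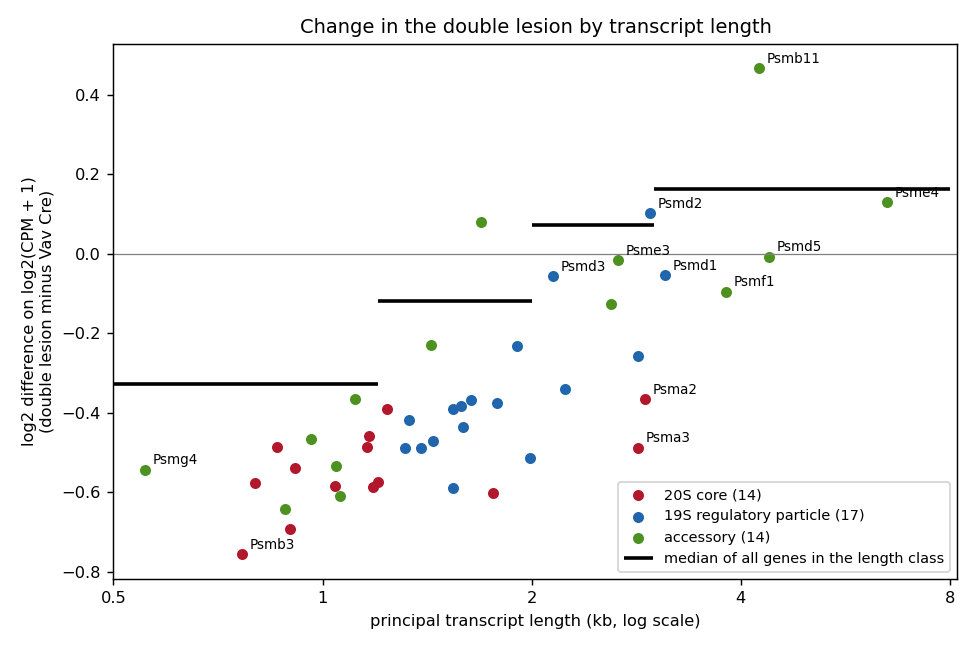
Each coloured point is 1 of the 45 members. It is placed by transcript length in kilobases (log axis) and by log2 difference between the double lesion and Vav Cre. Black segments mark the median of all tested genes in each range of length. In each of the 4 ranges of length named above the median member lies below the median gene of that range. Psmb11 lies above the segment of its range.

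With a smooth trend on transcript length taken out of each library, 15 members fell, 13 of them among the 23 (background 8.66%). The medians became -0.30 over the 45, -0.37 in the core and -0.33 in the 19S particle, against -0.045 over all genes. Psmd13 (-0.54, adjusted p = 0.00734), Psmd8 (-0.49, adjusted p = 0.0124) and Psmb3 (-0.48, adjusted p = 0.0132) stayed called, and these 3 were also the calls with Vav Cre 2 left out at the same time (background 3.51%), a setting chosen after the data were seen. The calls of Psma7, Psmb2, Psmc3, Psmd4, Psmd14, Psme1, Psme2, Psmg1, Psmg2 and Psmg3 did not hold, and Psma2 and Psmd11 gained one.

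**Figure D5:**
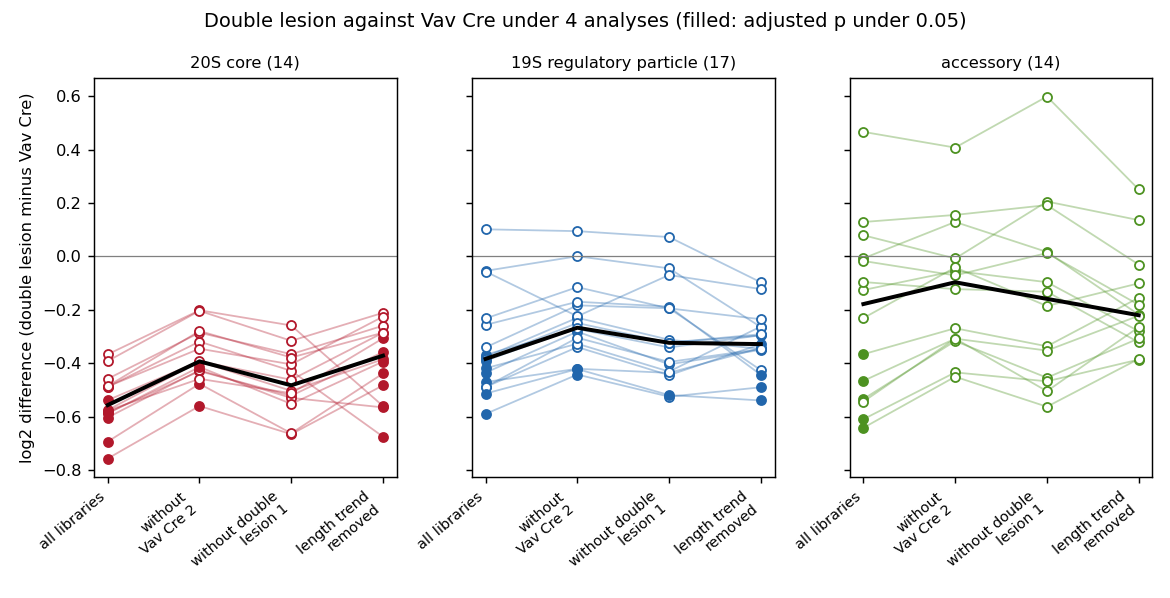
Lines join the log2 difference (double lesion minus Vav Cre) of each gene under 4 analyses of the same table, in panels by group, with the median in black and calls filled. Core genes stay below 0 in all 4 analyses, and the gap between the core and 19S medians is largest with all libraries.

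Within genotype groups the core genes varied together. Over the deviations of the 12 libraries from their group means, the median Pearson r between 2 core genes was 0.921 (91 pairs), between 2 genes of the 19S particle 0.759 (136 pairs) and between a core and a 19S gene 0.847 (238 pairs), against 0 for all pairs of genes tested. Accessory genes had a median of 0.235 (91 pairs). The points share library, depth and scaling, and the 9 libraries without Vav Cre gave 0.901, 0.676, 0.761 and 0.437. Psmb1 and Psme2 tracked the mean of the core most closely among beta subunits and activators (r = 0.990 and 0.977). Psmd3 had an r of -0.73 with it (-0.45 over the 9 libraries without Vav Cre), Psmf1 -0.44 (-0.62), Psmd2 -0.11 (-0.088) and Psme3 0.15 (0.84).

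Genes that work with the proteasome but carry other names were tested in the same fit. Of 6 partners tested in the double lesion 1 fell, the deubiquitinase Uchl5, by 0.47 ± 0.14 (adjusted p = 0.0368). Pomp, the maturation factor of the core, and Shfm1, the smallest 19S subunit, were at -0.45 ± 0.16 and -0.49 ± 0.17 and did not pass (adjusted p = 0.0782 and 0.0622). The ubiquitin receptor Adrm1 was at -0.12 ± 0.12 (adjusted p = 0.516). Of 5 genes on the pathway that controls proteasome transcription 1 rose, Ddi2, the protease that activates Nfe2l1, by 0.86 ± 0.25 (adjusted p = 0.0356). Nfe2l1 itself was at 0.50 ± 0.18 (adjusted p = 0.0689) and Nfe2l2 at -0.030 ± 0.12 (adjusted p = 0.893). Of 9 interferon-response genes other than the immunoproteasome 2 rose and none fell. Over all genes tested in this comparison 7.58% fell and 7.34% rose, and these lists are short.

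Other gene groups differed between the same groups of libraries. Of 10 immediate early genes (Fos, Jun and Egr1 among them) 9 rose in the double lesion, and their summed level was 1092 to 2043 CPM in Vav Cre, 5686 to 8643 CPM in KDM6B OE, 1151 to 2561 CPM in Tet2 KO and 6249 to 9473 CPM in the double lesion. Of 10 genes of G2 and M phase 9 fell (median -0.96), with sums of 3023 to 3676, 2273 to 2613, 2303 to 2894 and 1286 to 1910 CPM in the same order. The eosinophil genes Epx and Prg2 summed to 3960 CPM in double lesion 1, 492 and 1348 CPM in the other 2 double lesion libraries and 7.95 to 783 CPM in the other 9 libraries. Neither gene was at 0 in any library. The part of these genes, or of the cells they mark, in the proteasome difference was not tested.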

How the data were processed

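Poly(A) RNA (10 to 20 ng in total) from sorted cells was amplified and made into libraries with SMARTer v4 and Nextera kits, per the labels' protocols. Per the submitters' processing notes, TopHat2 2.0.10, HTSeq 0.6.0 and edgeR 3.8.6 were used on build mm10; neither annotation nor strand setting is named in the sources read. The authors deposited 1 table of signal values, CPM on an effective library size (edgeR scaling). All values gave back whole counts of reads (100% within a tolerance of 1e-06 relative to the count). The design foresaw plain CPM and its test was kept.

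Genes with CPM above 1 in at least 3 libraries (13046) entered limma 3.58.1 (R 4.3.3) on the log2(CPM + 1) scale, with a mean for each group, all 12 libraries and a mean trend; p-values were Benjamini-Hochberg adjusted over all of them, and ± after a log2 difference is its standard error. "Rose", "fell" and "called" mean an adjusted p under 0.05. Alternatives used edgeR 4.0.16 and DESeq2 1.42.0 on recovered reads, among others. The limma step was tested on simulated data. Gene positions and transcript lengths are from GENCODE (GRCm38), promoters from RefSeq. Members, gene lists and tests were chosen with earlier results of these data known. Values by library are given for up to 10 members called per comparison with the largest difference, the 2 highest and 2 lowest in each, the catalytic subunits and 10 examples of roles; Psmd1 and Psmd3 were added after their values were seen. Replicate numbers were checked for pairing: all 3 same-numbered pairs of Vav Cre and Tet2 KO libraries deviated together (correlation 0.30 to 0.34), and a replicate block left 0 members called there; in no other pair of groups did all 3, and the labels tie no number to a litter or day. A list of ubiquitin and E1 genes is not reported here.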

Additional observations from a re-analysis of the deposited data

How the results depend on the processing

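For the double lesion against Vav Cre (23 members called), the count was 0 with only the compared groups, 15 with the trend on transcript length removed and 15 with the trend on length and GC content removed (1.06%, 8.66% and 9.21% of all genes were lower in these fits). It was 3 with the length trend removed and Vav Cre 2 left out and 13 with a term for sex (3.51% and 5.3% of all genes); those 2 settings and the one with GC were chosen after the data were seen. Leaving out 1 library gave 1 to 31, and the other settings, edgeR, DESeq2, equal totals, another pseudocount and other filters, gave 20 to 30. KDM6B OE against Vav Cre went from 0 to 3 with DESeq2 (2.84% of all genes), and to between 0 and 8 without 1 library. The transgene count of 4 became 2 without a filter, 19 with DESeq2, 7 with the sex term, 1 with the length trend removed and 1 with Vav Cre 2 also left out (0.963%, 7.04%, 2.81%, 2.87% and 1.28% of all genes), and 0 to 25 without 1 library. The other 5 comparisons had 0 calls in each setting run. Fewer samples enter some fits, and the fit on only the compared groups does not borrow the spread of the other groups. The median SD of a member was 0.27 in Vav Cre and 0.12 in the double lesion. The cause of these changes was not tested. The core minus 19S difference from Vav Cre moved with the length trend removed, to -0.066 in KDM6B OE and -0.066 in the double lesion; without 1 library, an alternative chosen after the data were seen, it ran from -0.25 to -0.11 in KDM6B OE, from -0.21 to -0.069 in Tet2 KO and from -0.27 to -0.13 in the double lesion. Of 992 alternative values for 53 named log2 differences 6 changed sign, none of them called: Psme3 in the double lesion with equal totals (0.067), without Vav Cre 3 (0.080) and without double lesion 1 (0.012; -0.071 to 0.080 without 1 library), Psmf1 without double lesion 2 (0.013; from -0.17 without 1 library), and Psme4 with the length trend removed in the double lesion (-0.031) and the transgene comparison (-0.045). Of 18 same-numbered pairs of libraries 10 had a correlation of deviations above 0.1 (-0.15 to 0.39), against 5 of 36 with different numbers. All 6 pairs with number 1 were above it (0.16 to 0.39), 3 of 6 with number 2 and 1 of 6 with number 3. In 22 of 36 cases the closest library of another group had the same number, which is a hint from the data and not from the design. A replicate block gave 31 members called in the double lesion against Vav Cre, 1 in KDM6B OE against Vav Cre and 22 for the transgene (10.1%, 0.744% and 5.88% of all genes lower), and 0 elsewhere. All members passed the filter, so the setting for members that fail it gave no value.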
